A study of Arabidopsis thaliana with 6 samples.

Results

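The genes described are the heat shock transcription factor HSFA2 and 8 heat shock proteins of Arabidopsis thaliana. They are HSP101, HSP90.1, HSP70-4 and the small heat shock proteins HSP17.4, HSP17.6II, HSP17.6A, HSP21 and HSP23.6. They were chosen by gene ID, and a gene was used where the deposited table of read counts held a row for it. Of the 9 genes, 4 had a row among the 18734 genes of the table, namely HSFA2 (AT2G26150), HSP101 (AT1G74310), HSP90.1 (AT5G52640) and HSP70-4 (AT3G12580). The 5 small heat shock proteins had no row and are not analysed here.

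Poly(A) RNA was sequenced from the last 0.5 cm of the primary root, 5 days after planting, with 3 libraries each of wild-type Columbia (Col) and of ore15-2. In ore15-2, which has the same Columbia-0 background, a T-DNA is inserted in ORE15, which encodes a PLATZ transcription factor. Seedlings of both genotypes grew on vertical plates with 0.5% sucrose at 22 °C under continuous light of 80 μmol per square metre per second, after stratification at 4 °C, so neither genotype is labelled as heat treated. A single insertion line was used. Each genotype is labelled with 2 seedlings but has 3 libraries, and separate cultures are not mentioned, so the spread that p-values measure may be technical.

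When proteins unfold in heat, class A heat shock factors bind heat shock elements, inverted repeats of GAA and TTC, in the promoters of chaperone genes. HSFA2 is itself induced by heat and prolongs the response that the HSFA1 factors start. Among the chaperones, HSP70 and HSP90 fold and hold client proteins, HSP101 pulls aggregated proteins apart, and small heat shock proteins bind unfolding proteins so that they do not clump. Root tips also hold abundant relatives of these chaperones that are made without heat.

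Col libraries held 17433440 to 20333352 counts. In ore15-2, replicate 3 held 16503138, but replicates 1 and 2 held only 6706712 and 6396903. The mitochondrial share was 0.183% to 0.250% in Col and 0.328% in ore15-2 replicate 3, against 2.91% and 3.20% in its replicates 1 and 2. Those 2 libraries stand apart, and the main results are given with and without them. AT1G31040, which background knowledge pairs with ORE15, had 13, 12 and 8 counts in Col and 0, 0 and 1 in ore15-2. All 7 root tip markers were detected in every library, and 0 passed the edgeR threshold by adjusted p. Unadjusted edgeR p was under 0.05 for 1, where it was so for 5041 of all 18726 genes tested. DESeq2 called 0. WOX5, of the quiescent centre, had a log2 fold change of -0.60 (edgeR adjusted p = 0.129), and PLT2, a stem cell factor, had 0.31 (edgeR adjusted p = 0.228). Over all 18726 genes tested with edgeR, 1211 were higher in ore15-2 and 643 lower. Scaled by total counts, 431 were higher (2.3%) and 552 lower.

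Promoter sequences of measured genes are shown first, with the heat shock elements found in them. Each is the part of the 250 bases before the annotated gene start that lies in no annotated exon, read from RefSeq TAIR10.1 on the strand of the gene. Capitals mark heat shock elements, searched as GAANNTTC and TTCNNGAA for 2 units and as GAANNTTCNNGAA and TTCNNGAANNTTC for 3 units, on both strands.
HSFA2, chr2:11135466-11135623, plus strand: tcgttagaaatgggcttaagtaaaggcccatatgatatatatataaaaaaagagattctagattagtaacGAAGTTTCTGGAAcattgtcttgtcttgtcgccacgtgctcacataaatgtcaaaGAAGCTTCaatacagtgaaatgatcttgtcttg
HSP101, chr1:27940370-27940593, minus strand: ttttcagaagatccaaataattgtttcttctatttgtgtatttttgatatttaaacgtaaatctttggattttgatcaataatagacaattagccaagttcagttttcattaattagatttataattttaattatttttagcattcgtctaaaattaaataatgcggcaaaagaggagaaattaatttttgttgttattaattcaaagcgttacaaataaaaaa
HSP70-4, chr3:3993887-3994136, minus strand: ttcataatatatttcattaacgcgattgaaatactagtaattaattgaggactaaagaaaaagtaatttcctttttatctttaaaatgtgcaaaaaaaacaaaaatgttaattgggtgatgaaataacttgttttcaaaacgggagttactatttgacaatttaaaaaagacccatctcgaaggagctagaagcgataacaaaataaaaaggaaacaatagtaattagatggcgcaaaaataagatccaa

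The HSFA2 window held a 3-unit element from 88 to 76 bases before the gene start, which contains 2 overlapping 2-unit elements, and a separate 2-unit element from 33 to 26 bases before it. Among 23501 protein-coding genes with an annotated 5′ UTR, 0.370% had a 3-unit element within 250 bases and 15.7% had a 2-unit element. The windows of HSP101 and HSP70-4 held neither arrangement, which says only that these letters are not in them. The reference gives HSP90.1 no 5′ UTR, so its promoter window cannot be placed and is not shown. Of the 5 small heat shock proteins without a row, HSP17.4 had 3-unit elements at 2 places in its window and HSP17.6A and HSP21 had a 2-unit element each. A match is a description of the letters and not a measured binding site.

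All 4 measured genes were higher in ore15-2 than in Col by edgeR (adjusted p under 0.05), where 6.47% of all tested genes were higher. The genes were chosen with earlier results of these data known. The rises were 3.29-fold for HSFA2, 2.12-fold for HSP70-4, 2.05-fold for HSP90.1 and 1.53-fold for HSP101, as ratios of mean CPM, counts relative to the TMM-scaled library size. In each of the 4 genes every ore15-2 library lay above every Col library, as in 18.2% of all tested genes. These are whole root tips, so more cells of a type and more RNA per cell cannot be told apart.

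**Figure D1:**
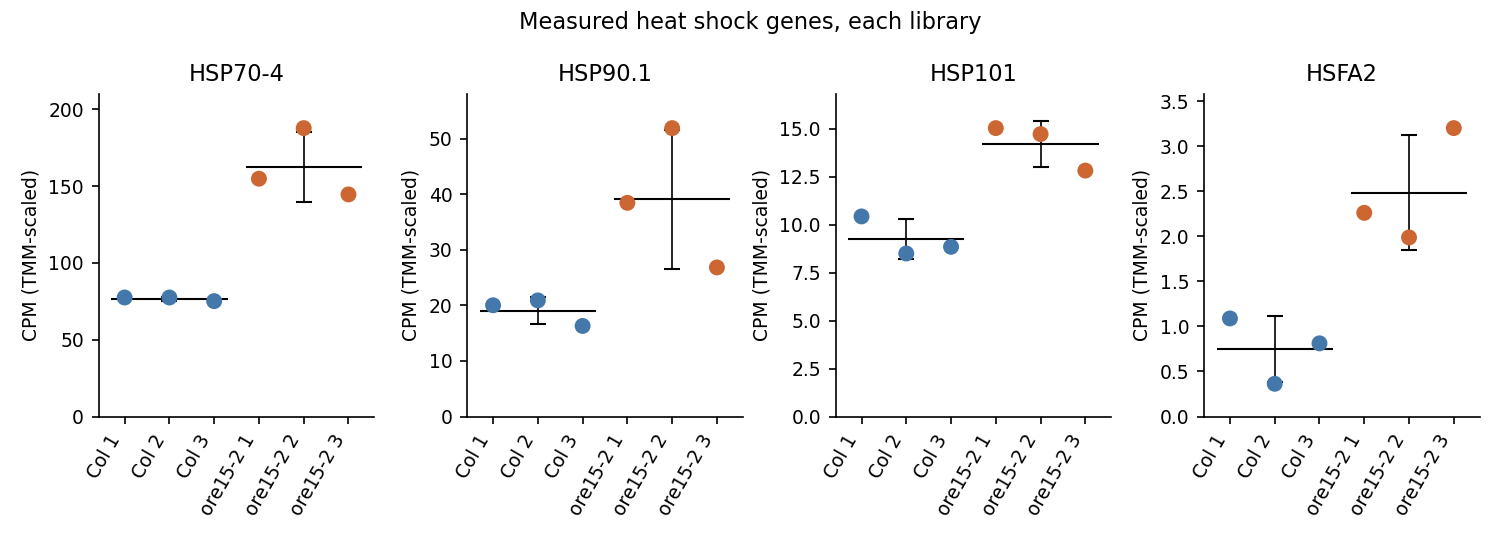
TMM-scaled CPM (y axis, linear from 0) of the 4 measured heat shock genes in each of the 3 Col (blue) and 3 ore15-2 (orange) libraries; the line is the mean and the bar 1 SD. The groups do not overlap in any of the 4 panels, and HSP90.1 spreads from 26.8 to 51.9 CPM within ore15-2.

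HSFA2, the regulator of the group, lies on chromosome 2 from 11135624 to 11137792 (TAIR10.1, plus strand). It was near the lower limit of detection, with counts of 21, 8 and 17 in the Col libraries and 14, 10 and 56 in those of ore15-2, each given in the order of replicates 1 to 3. After scaling these were 1.09, 0.363 and 0.812 CPM in Col and 2.26, 1.99 and 3.20 CPM in ore15-2, where 3 counts in a library correspond to 0.136 to 0.596 CPM. The highest value was in ore15-2 replicate 3, the deepest of the ore15-2 libraries, and the lowest was in Col replicate 2. Its mean rose to 2.48 ± 0.637 CPM in ore15-2 from 0.755 ± 0.366 CPM in Col (SD, n = 3; log2 fold change 1.83, SE 0.37, 95% interval 1.01 to 2.66, edgeR adjusted p = 0.0149). The call was lost without Col replicate 2 (log2 fold change 1.44, edgeR adjusted p = 0.0587), Col replicate 3 (1.86, adjusted p = 0.0593) or ore15-2 replicate 1 (1.91, adjusted p = 0.0509), and with total-count scaling (1.63, adjusted p = 0.0691). On ore15-2 replicate 3 alone against Col the log2 fold change was 2.12.

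HSP70-4, a cytosolic HSP70 that heat induces, lies on chromosome 3 from 3991117 to 3993886 (minus strand). It had 77.5, 77.5 and 75.2 CPM in Col and 155, 188 and 145 CPM in ore15-2, from counts of 1495, 1707 and 1573 against 959, 945 and 2530. The Col libraries were nearly level, and every ore15-2 library lay far above them. The mean rose to 162 ± 22.6 CPM in ore15-2 from 76.7 ± 1.36 CPM in Col (SD, n = 3; log2 fold change 1.08, SE 0.12, 95% interval 0.81 to 1.35, edgeR adjusted p = 0.000844). It passed the threshold in all 16 alternatives, which included leaving out each library, with log2 fold changes from 0.82 to 1.13. It was the only measured gene of the 4 to do so. On ore15-2 replicate 3 alone against Col the log2 fold change was 0.93.

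HSP90.1, the heat-inducible member of the cytosolic HSP90 genes, lies on chromosome 5 from 21352557 to 21355147 (plus strand). It had 20.0, 20.9 and 16.3 CPM in Col and 38.4, 51.9 and 26.8 CPM in ore15-2, from counts of 386, 460 and 341 against 238, 261 and 469. Replicate 2 was the highest ore15-2 library and replicate 3 the closest to Col. The mean rose to 39.1 ± 12.5 CPM in ore15-2 from 19.1 ± 2.44 CPM in Col (SD, n = 3; log2 fold change 1.00, SE 0.22, 95% interval 0.52 to 1.49, edgeR adjusted p = 0.0203). The call was lost without Col replicate 1, 2 or 3 (edgeR adjusted p = 0.0860, 0.0752 and 0.0943) or ore15-2 replicate 1 (adjusted p = 0.0867), and with total-count scaling (log2 fold change 0.74, adjusted p = 0.0522). On ore15-2 replicate 3 alone against Col the log2 fold change was 0.50, so the size of the difference followed the libraries with the high mitochondrial share. The part of that share in the result was not tested.

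HSP101, the cytosolic disaggregase of the ClpB family, lies on chromosome 1 from 27936508 to 27940369 (minus strand) and overlaps AT1G74300 on the other strand by 101 bases. It had 10.4, 8.49 and 8.84 CPM in Col and 15.0, 14.7 and 12.8 CPM in ore15-2, from counts of 201, 187 and 185 against 93, 74 and 224. The ore15-2 libraries lay close together, and replicate 3 was the lowest of them. The mean rose to 14.2 ± 1.2 CPM in ore15-2 from 9.25 ± 1.03 CPM in Col (SD, n = 3; log2 fold change 0.60, SE 0.15, 95% interval 0.27 to 0.94, edgeR adjusted p = 0.0350). This was the smallest and least stable difference of the 4. The call was lost without Col replicate 1, 2 or 3 (edgeR adjusted p = 0.0752, 0.210 and 0.170) and without ore15-2 replicate 1 (adjusted p = 0.123). It was also lost with upper-quartile scaling (log2 fold change 0.55, edgeR adjusted p = 0.0516) and total-count scaling (0.37, adjusted p = 0.207). On ore15-2 replicate 3 alone against Col the log2 fold change was 0.48.

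**Figure D2:**
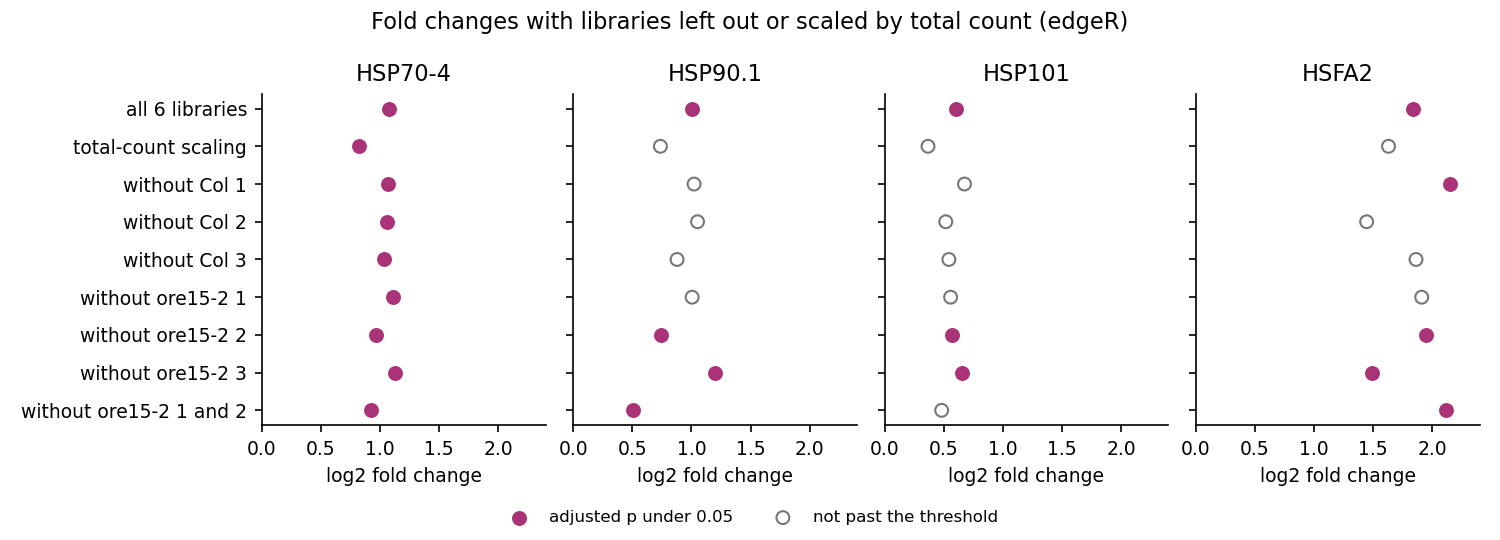
Log2 fold change of ore15-2 against Col (x axis) for the 4 genes with all 6 libraries, with total-count scaling and with libraries left out; filled points passed the edgeR threshold and open points did not. Every point lies above 0, and HSP70-4 is filled in every row shown, while the other genes lose the call in 4 to 6 of the 8 changed rows.

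Per length, HSP70-4 was the most abundant of the 4, followed by HSP90.1, HSP101 and HSFA2. On the deposited RPKM scale the Col means were 43.2 ± 1.07, 9.89 ± 1.29, 3.72 ± 0.459 and 0.802 ± 0.396 (SD, n = 3). The ore15-2 means were 77.8 ± 1.79, 16.9 ± 3.25, 4.88 ± 0.442 and 2.31 ± 0.889. No library of a gene reached the level of the gene above it in this order. The scaling of the RPKM values followed total counts closely. Relative to Col replicate 1 it was furthest from them in ore15-2 replicates 1 and 2, at 0.374 against 0.385 and 0.356 against 0.367. Of the 4 genes, limma on log2(RPKM + 1) called only HSP70-4 (log2 fold change 0.83, adjusted p = 0.00203), where it called 2.61% of 17935 genes higher. HSFA2, HSP90.1 and HSP101 had log2 fold changes of 0.87, 0.71 and 0.32 on that scale (limma adjusted p = 0.0737, 0.0627 and 0.203). The median of all genes on that scale was -0.21. Adding 1 also understates the change of low genes, but with 0.1 added instead, still only 1 of the 4 passed.

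The count of each gene as a percentage of a relative's count in the same library needs no scaling between libraries. HSP101 was 51.0%, 40.3% and 40.0% of CLPB3, the plastid ClpB, in Col and 68.4%, 74.0% and 64.4% in ore15-2. CLPB3 itself had a log2 fold change of -0.04 (edgeR adjusted p = 0.820). CLPB4, another ClpB, had 0.23 (edgeR adjusted p = 0.174), with every ore15-2 library above every Col library. The ratio to CLPB4 was not taken, so the separation is given for CLPB3 only. HSFA2 was 5.79%, 1.76% and 3.87% of HSFA1D, a factor that starts the heat response, in Col and 10.2%, 8.13% and 18.0% in ore15-2. The groups did not overlap for either ratio, and no test was made of these ratios. CLPB3 and HSFA1D were named after their values were seen.

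Against the cytosolic relatives the ratios were closer. HSP70-4 was 3.44%, 3.39% and 3.38% of HSC70-1, the main cytosolic HSP70, in Col and 4.15%, 3.69% and 6.59% in ore15-2, so replicate 3 was the highest. HSP90.1 was 3.17%, 3.37% and 2.58% of HSP90.2, a cytosolic HSP90 made without heat, in Col and 3.53%, 3.39% and 3.88% in ore15-2. The lowest ore15-2 ratio of HSP90.1 was 1.01 times the highest Col ratio.

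**Figure D3:**
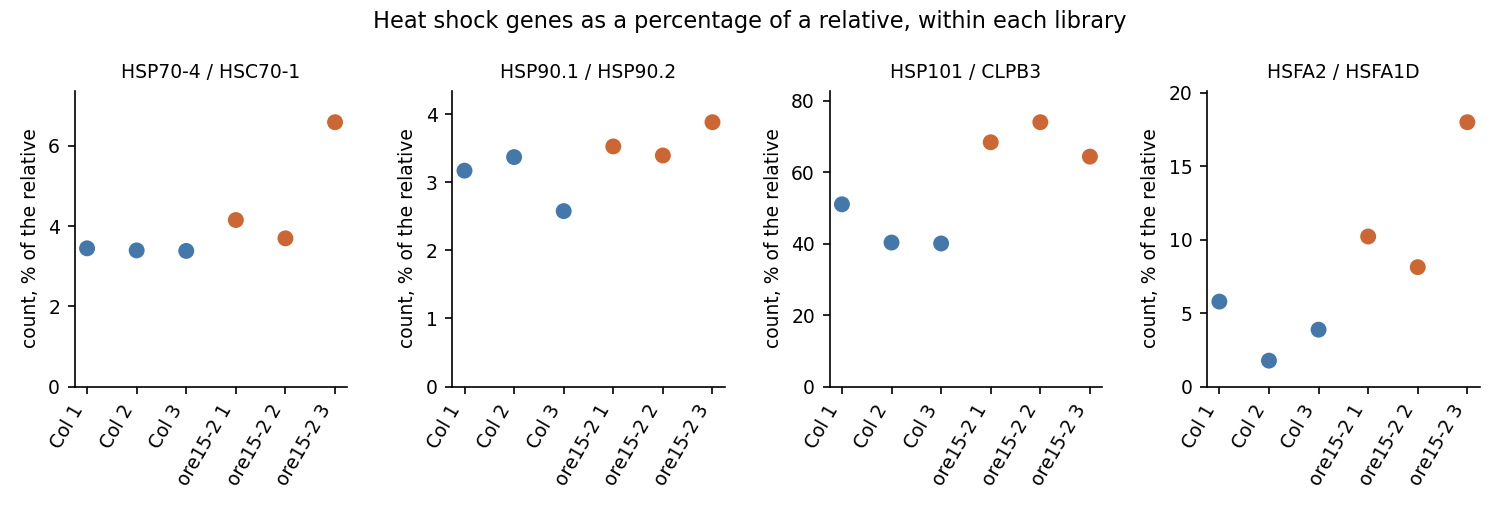
Count of each measured heat shock gene as a percentage of a relative's count (y axis, linear from 0) in each Col (blue) and ore15-2 (orange) library. HSP101 against CLPB3 separates the genotypes in all libraries, from at most 51.0% to at least 64.4%, while HSP90.1 against HSP90.2 nearly touches between 3.37% and 3.39%. CLPB3 was named after its value was seen.

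These cytosolic relatives were high mainly in ore15-2 replicates 1 and 2. HSC70-1 differed from the Col mean by 0.73, 1.17 and -0.04 on the log2 CPM scale in ore15-2 replicates 1 to 3. HSP90.2 differed by 0.80, 1.28 and 0.14, HSP90.3 by 0.82, 1.13 and 0.14, and HSP90.4 by 0.45, 0.93 and 0.05. None of these 4 genes passed the threshold over the 6 libraries (edgeR adjusted p = 0.251, 0.102, 0.0928 and 0.124). Of the 50-base stretches of HSP90.2, HSP90.3 and HSP90.4, 18.9%, 24.8% and 19.5% also occur in another gene, so the counts of these 3 copies may be split between them. HSP70-4 differed by 1.01, 1.29 and 0.91 in the same libraries, and HSP90.1 by 1.01, 1.45 and 0.50. Of the other cytosolic HSP70 genes shown, Hsp70-2 differed by 1.15, 1.57 and 0.69 and AT3G09440 by 0.89, 1.13 and 0.30. Hsp70b, a further HSP70 family gene that the figure does not show, went the other way, by -0.46, -0.83 and -0.27. It did not pass the threshold (edgeR adjusted p = 0.161). Its ore15-2 libraries all lay below Col, as in 16.3% of all tested genes. No 50-base stretch of HSP70-4, HSP90.1 or HSFA2 occurs in another gene.

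**Figure D4:**
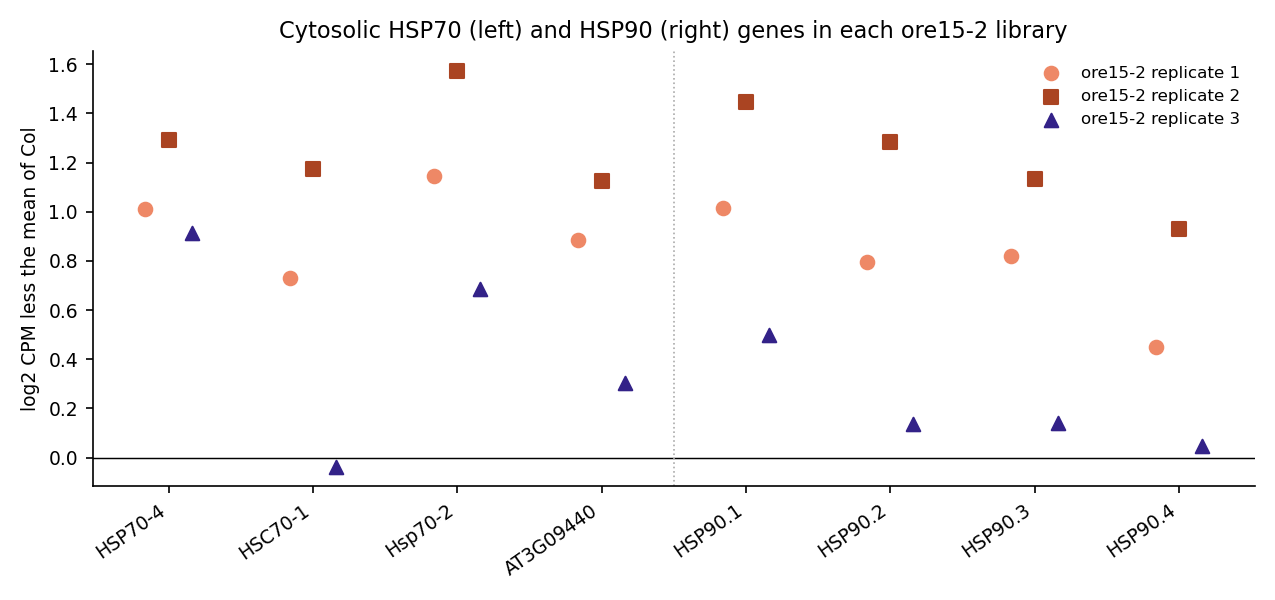
Log2 CPM of each ore15-2 library less the mean of the Col libraries (y axis) for cytosolic HSP70 genes, left, and cytosolic HSP90 genes, right. Replicate 3 (triangle) lies between -0.04 and 0.14 for HSC70-1, HSP90.2, HSP90.3 and HSP90.4. It lies at 0.91 for HSP70-4, 0.69 for Hsp70-2, 0.50 for HSP90.1 and 0.30 for AT3G09440.

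Beyond these 4 genes, 76 measured genes of 87 in 7 other heat shock lists gave 7 higher and 2 lower, or 9.21% and 2.63%, against 6.47% and 3.43% of all genes tested. Their median log2 fold change was 0.09, against -0.0005 for all genes, and the median of the 4 genes was 1.04. The lists were picked by family and role, with earlier results of these data known, so these shares are not independent of the data.

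Among 15 other heat shock factors 1 rose, 1 fell and 13 did not pass, with a median of -0.11. HSFB3, a class B factor, which lacks the activation domain of class A, rose from 0.778, 0.908 and 0.956 CPM in Col to 1.94, 2.39 and 2.46 CPM in ore15-2 (log2 fold change 1.38, SE 0.24, edgeR adjusted p = 0.00697), from 12 to 43 counts in each ore15-2 library. HSFA7A, a class A factor that heat induces, went the other way, from counts of 939, 881 and 972 in Col to 103, 45 and 524 in ore15-2, or from 45.0 ± 4.51 to 18.5 ± 10.6 CPM (SD, n = 3). It fell by 1.19 on the log2 scale (SE 0.31, edgeR adjusted p = 0.0418), and was lowest in ore15-2 replicates 1 and 2. The HSFA7A call was lost without Col replicate 1, 2 or 3 (edgeR adjusted p = 0.153, 0.106 and 0.115) or ore15-2 replicate 1 (adjusted p = 0.172) and with total-count scaling (adjusted p = 0.0956), and on replicate 3 alone the change was -0.58. HSFA1D had a log2 fold change of 0.07 (edgeR adjusted p = 0.778). The 250 bases before HSFA7A held 3-unit heat shock elements at 2 places, so of the class A factors HSFA2 and HSFA7A, each with such an element, 1 rose and 1 fell. In the other lists 3 further measured genes had such an element and were not called. They were AT1G53540, GOLS1 and DREB2A, with log2 fold changes of 0.07, -0.02 and -0.59.

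Among 12 other small heat shock proteins 4 rose, 1 fell and 7 did not pass, with a median of 0.03. The reference names all 5 that changed only as HSP20-like chaperones. AT5G51440 rose from 9.85, 9.35 and 9.08 CPM in Col to 23.1, 33.8 and 21.0 CPM in ore15-2 (log2 fold change 1.44, SE 0.18, edgeR adjusted p = 0.00163). AT4G21870 fell from 88, 93 and 105 counts to 13, 6 and 30, or from 4.60 ± 0.398 to 1.67 ± 0.455 CPM (SD, n = 3). It fell by 1.43 on the log2 scale (SE 0.22, edgeR adjusted p = 0.00425). Both stayed past the threshold in all 16 alternatives and did not overlap between the genotypes, where 16.3% of all genes lay wholly below Col.

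AT5G47600 rose from 2.04 ± 0.406 to 6.17 ± 2.05 CPM and AT1G07400 from 1.83 ± 0.164 to 4.24 ± 0.849 CPM (SD, n = 3; edgeR adjusted p = 0.0117 and 0.0142). AT5G47600 lost the call without Col replicate 2 or 3 or ore15-2 replicate 1 (edgeR adjusted p = 0.0646, 0.0578 and 0.0613). AT1G07400 lost it without Col replicate 1, 2 or 3 or ore15-2 replicate 1 (adjusted p = 0.0690, 0.0931, 0.0502 and 0.0637). AT1G54050, named after its value was seen because it completes the count, rose by 0.76 (edgeR adjusted p = 0.0488). That call did not hold without Col replicate 1, 2 or 3 (adjusted p = 0.103, 0.217 and 0.197) and without ore15-2 replicate 1 or 2 (adjusted p = 0.116 and 0.0814). Nor did it hold with RLE, upper-quartile or total-count scaling (edgeR adjusted p = 0.0526, 0.0621 and 0.142) or a filter at a mean of 1 CPM (adjusted p = 0.0539).

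Among 15 other HSP70 family genes 2 rose, 0 fell and 13 did not pass, with a median of 0.23. Hsp70-2, a close relative of HSC70-1, rose from 47.4, 50.2 and 46.9 CPM in Col to 107, 144 and 77.5 CPM in ore15-2 (log2 fold change 1.17, SE 0.19, edgeR adjusted p = 0.00549), and passed in all 16 alternatives. AT3G09440, which overlaps AT3G09430 on the other strand by 863 bases, rose from 350, 332 and 350 CPM to 637, 751 and 424 CPM (log2 fold change 0.81, SE 0.21, edgeR adjusted p = 0.0442). That call did not hold without Col replicate 1, 2 or 3 (edgeR adjusted p = 0.178, 0.216 and 0.170) or ore15-2 replicate 1 (adjusted p = 0.162), and on replicate 3 alone the change was 0.31.

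Of 8 other HSP90 and ClpB genes, 0 passed by edgeR or limma-voom, and the median was 0.27. Unadjusted edgeR p was under 0.05 for 4, where it was so for 5041 of all 18726 genes tested. DESeq2 called 2 higher, where it called 8.89% of all genes higher and limma-voom 6.16%. HSP90.2 and HSP90.3 had log2 fold changes of 0.81 and 0.75. Of 7 HSP60 chaperonins and their cofactors, which fold proteins in mitochondria and plastids, 0 passed by edgeR or limma-voom, 3 had unadjusted p under 0.05, and DESeq2 called 2 higher. CPN10 and CPN20, which cap the chaperonin chamber, had values of 0.68 and 0.51, and their list had a median of 0.27. CPN10 had 261, 260 and 248 CPM in Col and 404, 552 and 281 CPM in ore15-2, so replicate 3 was again nearest to Col. CPN20 overlaps a neighbouring gene by 304 bases.

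Of 15 co-chaperones 0 passed by edgeR and 3 had unadjusted p under 0.05, where 5041 of all 18726 genes tested did. DESeq2 called 2 higher, beside 8.89% of all genes, and limma-voom 1, beside 6.16%. The median was 0.15. FES1A, which acts with cytosolic HSP70, and J2, a DnaJ partner of HSP70 that overlaps a neighbouring gene by 371 bases, had log2 fold changes of 0.49 and 0.51 (edgeR adjusted p = 0.0592 and 0.0596). Of 4 measured heat-induced genes outside the chaperones 0 passed by edgeR or DESeq2 and 1 had unadjusted p under 0.05, and the median was 0.02. DREB2A, a transcription factor of the heat and drought response, had a log2 fold change of -0.59 (edgeR adjusted p = 0.142). MBF1C, a heat-induced coactivator, had 0.14 (adjusted p = 0.616), and its sign was negative under total-count scaling.

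**Figure D5:**
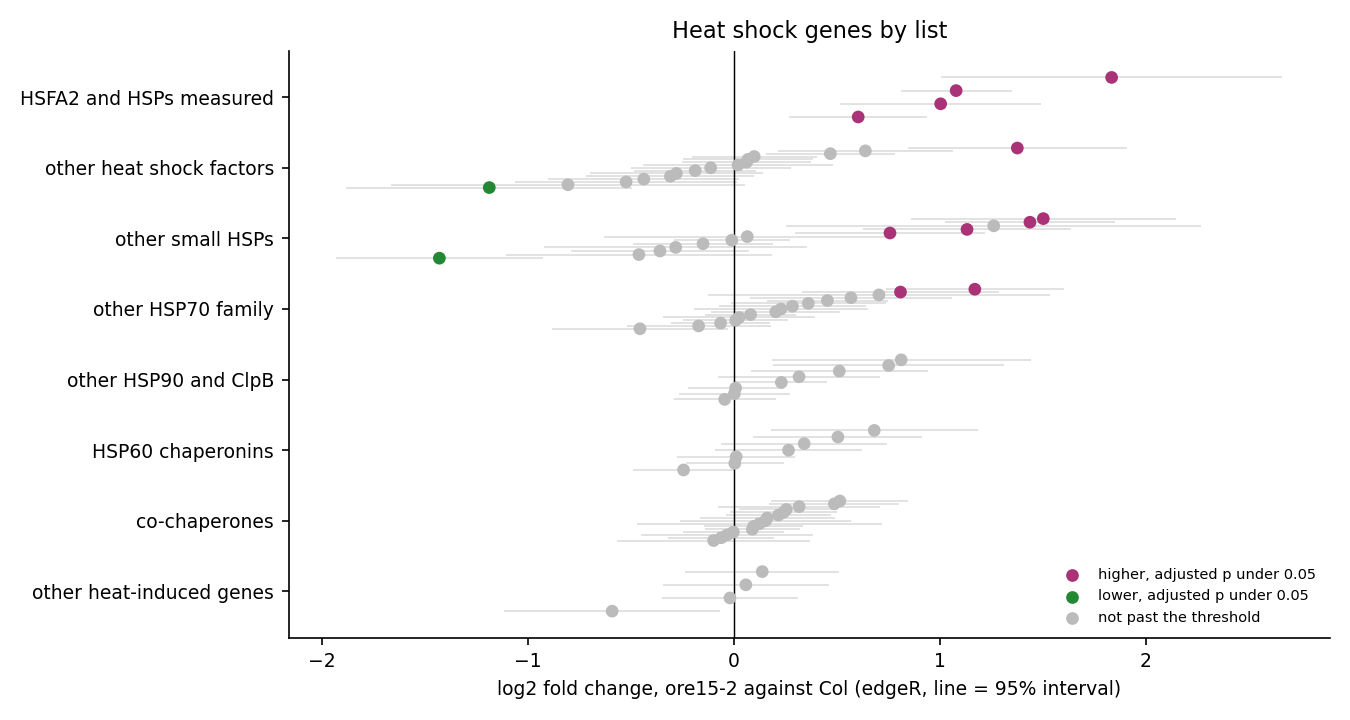
Log2 fold change of ore15-2 against Col (x axis) with its 95% edgeR interval for each measured heat shock gene, grouped by list (y axis); purple points are higher and green points lower at adjusted p under 0.05. All 4 points of the top row are purple, while 7 purple and 2 green points are spread over 3 of the other lists.

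On ore15-2 replicate 3 alone against Col, the median log2 fold change of the 4 genes was 0.71 by edgeR, against 0.006 for all genes. The other heat shock factors had a median of -0.03, the other small heat shock proteins -0.02 and the other HSP70 genes 0.06. The other HSP90 and ClpB genes had 0.02, the HSP60 chaperonins -0.07 and the co-chaperones 0.10. The heat-induced genes outside the chaperones had -0.007. In that fit the single ore15-2 library is taken to vary like the Col libraries.

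Markers of other cells were measured beside the heat shock genes. Of 4 root hair markers 3 rose, COBL9, EXPA18 and EXPA7, wall proteins of growing hairs, by 0.81, 0.90 and 0.59 on the log2 scale (edgeR adjusted p = 0.0232, 0.0232 and 0.0404), where 6.47% of all tested genes were higher. RHD6, a regulator of root hair formation, had a log2 fold change of 0.04 (edgeR adjusted p = 0.884). The summed level of the 4 root hair markers was 146 to 158 CPM in Col and 208 to 325 CPM in ore15-2. All 3 calls were lost without any 1 of Col replicates 1, 2 and 3, with edgeR adjusted p from 0.0710 to 0.186, and that of COBL9 also without ore15-2 replicate 1 (adjusted p = 0.0851). With total-count scaling all 3 were lost too (adjusted p = 0.0568, 0.0575 and 0.150). Of 5 leaf photosynthesis markers 1 rose, beside that 6.47%, namely CA1, from 4, 1 and 0 counts to 18, 28 and 11, and their summed level was 255 to 294 CPM in Col and 176 to 336 CPM in ore15-2. The CA1 call was lost without Col replicate 1, 2 or 3 (edgeR adjusted p = 0.0587, 0.0961 and 0.0756) or ore15-2 replicate 1 (adjusted p = 0.0976). The part of root hair content in the heat shock results was not tested.

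Among 15399 genes averaging 5 CPM or more, the 5 most like the average of the 4 genes over the 6 libraries, by Pearson r of log2 CPM, were AT4G24920, AT3G57020, FLP, AT1G26750 and TO2. Their r was from 0.992 to 0.997, a description over 6 libraries that share depth and genotype. AT4G24920 rose by 0.45 (edgeR adjusted p = 0.0343), a call lost without Col replicate 1, 2 or 3 or ore15-2 replicate 1 (adjusted p = 0.116, 0.235, 0.177 and 0.123) and with total-count scaling (adjusted p = 0.206). FLP, AT1G26750 and TO2 (AT1G31020), all on chromosome 1, lie 6158341, 1821235 and 10472 bases from AT1G31040, the gene taken as ORE15. AT1G26750 and TO2 rose 2.22-fold and 2.39-fold in mean CPM, and stayed past the threshold in all 16 alternatives. AT3G57020 and FLP had log2 fold changes of 0.39 and 0.36 (edgeR adjusted p = 0.0568 and 0.0693). Among the 4 genes themselves, r ran from 0.627 for HSFA2 with HSP90.1 to 0.946 for HSP101 with HSP70-4.

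The neighbours of the 4 loci were set beside them. Of the 10 tested genes on each side, 0 of 20 around HSFA2 passed by edgeR, 1 rose around HSP101, 2 fell around HSP90.1 and 2 rose around HSP70-4, against 6.47% higher and 3.43% lower over all genes. The median log2 fold changes of these neighbours were -0.03, 0.12, 0.07 and 0.10.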

How the data were processed

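The authors deposited read counts per gene (18734 genes) and RPKM values (18340 genes) for 6 libraries. FastQC, cutadapt, TopHat2, HTSeq and the TAIR10 build are named, per the submitters' processing notes. Neither the strand setting of the counting nor its annotation release is stated in those sources. Overlapping antisense genes may therefore share reads. In all 18340 shared genes the deposited RPKM and counts implied 1 gene length within a relative tolerance of 0.0001. For 3 of the 4 genes that length was 0.994 times the longest annotated coding length, and for HSP90.1 1.00 times, so levels are per coding length and the RPKM values are no separate measurement. Deposited columns not used numbered 0.

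The main test was edgeR 4.0.16 (R 4.3.3) on the counts (quasi-likelihood F-test, TMM scaling, filterByExpr, genotype only; Benjamini-Hochberg over 18726 genes, threshold 0.05). CPM use TMM-scaled library sizes, and log2 CPM a prior count of 2. RPKM were tested with limma 3.58.1 on log2(RPKM + 1) for a mean RPKM of at least 1. Alternatives were RLE, upper-quartile and total-count scaling, DESeq2 1.42.0, limma-voom, other filters, a replicate block, organelle genes left out and libraries left out. Total-count scaling was chosen after seeing the data.

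The members and the gene lists were chosen with earlier results of these data known. Named genes are the 9 members, up to 4 genes past the threshold in each other list by smallest adjusted p (or, if none passed, the 2 of smallest p) and the 5 genes most like the members. HSC70-1, HSP90.4, CLPB3, HSFA1D, AT1G54050 and Hsp70b are named outside this rule, after their values were seen. Gene names, positions and sequences are from RefSeq TAIR10.1, in which 18690 IDs had an entry. On simulated counts for ore15-2 against Col, 85 of 100 genes changed 2-fold and 100 of 100 changed 4-fold were called, with 9 false calls among 18726 genes. The changed genes were drawn from those averaging at least 5 CPM, so these rates do not cover lower genes such as HSFA2. Libraries were drawn independently, so libraries that stand apart together were not simulated. Floors of 3 counts cover counting error only, while the edgeR intervals also take in the spread between libraries.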

Additional observations from a re-analysis of the deposited data

How the results depend on the processing

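HSP70-4, HSFB3, AT5G51440, AT4G21870 and Hsp70-2 kept direction and call in all 16 edgeR, DESeq2 and limma-voom alternatives. HSFA2, HSP101 and HSP90.1 kept their direction in all 16 and lost the call in 4, 8 and 5 of them. Of the 4 measured genes, 1 to 4 passed with each library left out in turn, where 2.23% to 18.7% of all genes were higher, and 1 passed with total-count scaling, which moved the median of all genes by -0.23 on the log2 scale. Upper-quartile scaling left 3, where 5.63% of all genes were higher. The cause was not tested.

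Genes changed over the whole table numbered 634 to 6612 with each library left out, 983 with total-count scaling and 3109 with ore15-2 replicates 1 and 2 left out, against 1854. On RPKM, 1 to 3 of the 4 genes passed with each library left out, and the share of all genes was not taken in those fits. MBF1C changed sign with total-count scaling (-0.085), HSC70-1 with ore15-2 replicates 1 and 2 left out (-0.026), and HSFA1D in both (-0.17 and -0.17) and without ore15-2 replicate 2 (-0.041, against 0.175 without replicate 3). The medians of the small heat shock protein, HSP70, HSP60 and co-chaperone lists were -0.18, -0.05, -0.003 and -0.09 with total-count scaling.

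The labels share replicate numbers but give no pairing, and deviations of same-numbered libraries correlated at 0.058, 0.133 and -0.254. With the replicate block 1641 genes changed by edgeR, and 5.82% of all genes were higher. In that fit 3 of the 4 genes passed (HSP101 edgeR adjusted p = 0.0594). On RPKM with the block 2 passed, and the share of all genes was not taken there. In ore15-2 replicates 1 and 2, HSFA2 rested on 14 and 10 counts, which limits what depth can show for it.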
